A study of Homo sapiens with 6 samples.

Results

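The 8 genes described here encode transcription factors that set intestinal identity: CDX1 and CDX2, HNF4A and HNF4G, GATA6, KLF4 and KLF5, and ATOH1. They were taken by symbol from the count table, and all 8 were among its 26490 symbols. They were measured by RNA-seq in SW403, an established colon adenocarcinoma cell line, in 3 control libraries (genotype given as WT) and 3 libraries of cells with IRS2 knocked down (genotype given as IRS2_knockdown). All 6 cultures were seeded for 24 h in DMEM with 10% fetal bovine serum and received no other treatment. IRS2 encodes an adaptor of the insulin and IGF1 receptors, and the series asks about its part in brain metastasis of colorectal cancer. The sample titles and genotype speak of a knockdown, while the descriptions call the same libraries DMEM_IRS2KO and the controls DMEM_NS. How IRS2 was lowered, what the control cells carried and whether each line was a clone are not given in the labels, so the spread between replicates may be that of parallel cultures of 1 control and 1 knockdown line.

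In the gut epithelium these factors act at successive levels. CDX2 and CDX1 are caudal-type homeobox proteins, and CDX2 gives endoderm its intestinal fate. HNF4A and HNF4G are nuclear receptors that bind as dimers near genes of enterocyte lipid handling and of the brush border. GATA6 is a zinc finger factor of endoderm that is present in crypts. KLF5 is known from dividing crypt cells and KLF4 from differentiated and goblet cells. ATOH1 is a basic helix-loop-helix factor that commits progenitors to secretory fates and is repressed by Notch signalling through HES1.

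The control libraries held 11816973 to 12585013 counts and the knockdown libraries 14329348 to 18114656 counts, so each knockdown library was the deeper. IRS2 had 408, 437 and 381 counts in control and 186, 210 and 216 counts in knockdown libraries, or 33.2 ± 1.42 and 12.4 ± 0.535 CPM (counts divided by the library total and scaled to a common total; SD over 3 libraries each). The edgeR log2 fold change of IRS2 was -1.39 ± 0.07 (SE; adjusted p 3.12e-11). The low-count filter kept 6 of 12 colon epithelial markers, among them EPCAM, KRT8, KRT18, KRT19 and VIL1. KRT20 and CEACAM5 had 0 counts in all 6 libraries. LGALS4, GPA33 and CDH1, the E-cadherin gene, had at most 5 counts in any library, and CDH17 had at most 11. The label of a colon line was therefore matched by 6 of these 12 markers and not by the other 6, while KRT5, a basal keratin listed among markers of other cell types, had 18463 to 26797 counts per library.

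Upstream sequence is shown for the 4 members whose RNA differed between the groups, because these factors are known to act on each other's genes. The series holds no binding data. The 250 bases before the start site were read from the RefSeq promoter table (GRCh38.p14), on the strand of the gene. Capitals mark every match, on either strand, to a CDX core (ATAAA), an HNF4 site (CAAAGTNCA), a GATA site (AGATAA) or a KLF and SP site (CCNCNCCC). The table has 2 start sites for HNF4A, which is known to use an upstream and a downstream promoter, and 2 for KLF5, of which the downstream one is that of the canonical transcript.

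CDX2, chr13:27969316-27969565, minus strand: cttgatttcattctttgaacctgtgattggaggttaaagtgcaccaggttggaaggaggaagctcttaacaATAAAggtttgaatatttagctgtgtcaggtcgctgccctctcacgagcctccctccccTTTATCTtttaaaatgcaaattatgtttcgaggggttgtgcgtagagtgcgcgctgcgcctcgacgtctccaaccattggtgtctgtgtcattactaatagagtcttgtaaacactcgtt
HNF4A upstream start, chr20:44355449-44355698, plus strand: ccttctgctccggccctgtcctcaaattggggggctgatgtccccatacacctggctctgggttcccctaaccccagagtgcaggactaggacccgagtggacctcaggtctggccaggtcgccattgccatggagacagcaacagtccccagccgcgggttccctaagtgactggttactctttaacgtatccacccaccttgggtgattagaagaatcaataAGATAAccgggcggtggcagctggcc
HNF4A downstream start, chr20:44400989-44401238, plus strand: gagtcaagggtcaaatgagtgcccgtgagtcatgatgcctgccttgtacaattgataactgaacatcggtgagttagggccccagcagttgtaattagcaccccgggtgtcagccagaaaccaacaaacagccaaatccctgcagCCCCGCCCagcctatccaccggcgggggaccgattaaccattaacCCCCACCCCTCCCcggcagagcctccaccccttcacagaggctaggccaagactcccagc
KLF5 upstream start, chr13:73054726-73054975, plus strand: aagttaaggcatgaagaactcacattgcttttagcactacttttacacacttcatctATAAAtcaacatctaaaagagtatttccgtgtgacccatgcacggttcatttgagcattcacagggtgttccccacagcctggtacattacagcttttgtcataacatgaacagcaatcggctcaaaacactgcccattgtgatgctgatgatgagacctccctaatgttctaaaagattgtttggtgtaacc
KLF5 downstream start, chr13:73058755-73059004, plus strand: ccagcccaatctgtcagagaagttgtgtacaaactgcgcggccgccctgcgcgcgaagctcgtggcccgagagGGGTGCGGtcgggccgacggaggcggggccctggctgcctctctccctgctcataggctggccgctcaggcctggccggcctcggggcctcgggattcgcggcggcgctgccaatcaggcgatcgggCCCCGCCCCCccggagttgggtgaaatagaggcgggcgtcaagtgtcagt
GATA6, chr18:22169339-22169588, plus strand: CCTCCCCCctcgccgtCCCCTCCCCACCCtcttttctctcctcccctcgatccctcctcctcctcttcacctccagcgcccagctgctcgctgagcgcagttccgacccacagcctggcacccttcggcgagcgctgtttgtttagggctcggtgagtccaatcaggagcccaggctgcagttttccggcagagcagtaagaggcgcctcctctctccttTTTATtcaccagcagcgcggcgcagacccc

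The window of CDX2 held 2 CDX cores, at positions -179 and -120 from the start site, the second overlapping a GATA site at -119. The window of the upstream HNF4A start held a GATA site at -26 and no match to the other motifs. The downstream HNF4A start had 3 KLF and SP matches, at -105, -60 and -55. The upstream KLF5 start had a CDX core at -193 and no KLF and SP match, and the downstream start had 3 KLF and SP matches. GATA6 held 3 of these and a CDX core at -30. The windows of KLF4 and ATOH1, not shown, held 10 and 2 KLF and SP matches and none of the other motifs. Whether the matches go with the changes in RNA was not tested. Over 35116 windows of this length in the table, 32.7% held a CDX core, 9.17% the GATA site, 53.4% the KLF and SP site and 0.940% the HNF4 site. A match is a description of the letters, not a site shown to be bound. No window shown held the HNF4 site. The counts are per gene, so reads from the 2 starts of HNF4A or of KLF5 were not separated.

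Differences between knockdown and control were tested with edgeR's quasi-likelihood test over all 13832 genes that passed its filter on low counts, with Benjamini-Hochberg adjustment and a threshold of 0.05. Of the 8 members, 5 passed the filter. HNF4A, KLF5 and CDX2 were higher in knockdown, GATA6 was lower, and KLF4 did not pass the threshold. Among all tested genes, 19.3% were called higher and 19.2% lower, so calls in either direction were common. The median log2 fold change was 0.23 over the 5 tested members and -0.004 over all tested genes. HNF4G, ATOH1 and CDX1 had too few counts to be tested. In bulk RNA, fewer cells that express a gene and less RNA of it per cell cannot be told apart.

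HNF4A had the largest change of the tested members. It lies on chromosome 20 (GRCh37, 42984339 to 43061485, plus strand), and its canonical transcript has 10 exons. It had 1128, 1116 and 1025 counts in control libraries and 2077, 2294 and 2521 in knockdown libraries. As CPM these were 89.6, 88.8 and 86.7 in control and 144.9, 134.4 and 139.2 in knockdown. Every knockdown library was above every control library, by far more than the spread within a group. The means were 88.4 ± 1.49 and 139.5 ± 5.27 CPM (SD, n = 3 each), with a log2 fold change of 0.69 ± 0.04 (SE; 95% interval 0.60 to 0.77), a 1.61-fold rise, and an edgeR adjusted p of 1.73e-10. By the size of its fold change, HNF4A exceeded 92.2% of the tested genes.

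HNF4G, the paralogue of HNF4A, was near the limit of detection. It had 8, 6 and 6 counts in control and 2, 3 and 4 in the deeper knockdown libraries. The knockdown values were all below the control values. Summed over a group, HNF4G stood at 0.541 CPM in control (exact Poisson 95% interval 0.331 to 0.836) and 0.182 CPM in knockdown (0.0831 to 0.345). The control level was 2.98 times the knockdown level (exact 95% interval 1.30 to 7.42). These intervals cover counting error only. When genes of any count were tested, the log2 fold change of HNF4G was -1.49 ± 0.64 (SE) with an edgeR adjusted p of 0.0682, so the difference did not pass the threshold. DESeq2's Wald test gave an adjusted p of 0.221.

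The balance within the HNF4 pair was read from the log2 ratio of HNF4A to HNF4G in each library. It was 7.14, 7.54 and 7.42 in control and 10.0, 9.58 and 9.30 in knockdown libraries, and the groups did not overlap. The mean moved by 2.27 towards HNF4A. The exact two-sided permutation p was 0.1, the smallest that 3 against 3 libraries can give, and 0.2 after adjustment over the 2 pairs compared. The knockdown ratios rest on 2 to 4 counts of HNF4G.

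CDX2 lies on chromosome 13 (GRCh37, 28535055 to 28543452, minus strand), the chromosome that also carries KLF5 and IRS2. It had 75.5, 77.8 and 79.8 CPM in control and 80.9, 85.1 and 85.1 CPM in knockdown. The groups did not overlap, but the lowest knockdown library was only just above the highest control library. The log2 fold change was 0.14 ± 0.04 (SE; 95% interval 0.05 to 0.23), a 1.10-fold rise with an edgeR adjusted p of 0.0148. Among tested genes, 48.5% had a smaller change, so the shift of CDX2 was of ordinary size in this comparison. It missed the threshold with library size alone as the scaling (edgeR adjusted p 0.0502), in DESeq2's Wald test (0.0646), and without control replicate 1 (0.0668) or knockdown replicate 2 (0.0644). Over its 17 alternative fits the adjusted p ran from 0.00616 to 0.0668.

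CDX1, which overlaps CDX2 in function, had 0 counts in all 6 libraries. A count of 0 allows up to 3 counts per group (one-sided 95% limit), or 0.0812 CPM in control and 0.0606 CPM in knockdown. The exact Poisson 95% intervals, as given for HNF4G, reached 0.0998 and 0.0745 CPM. CDX1 expression was therefore not detectable at this depth in either group, and no ratio to CDX2 could be formed.

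GATA6 was the tested member called lower. It lies on chromosome 18 (GRCh37, 19749550 to 19782491, plus strand). It had 260, 260 and 242 counts in control and 201, 228 and 223 in knockdown, or 20.7, 20.7 and 20.5 CPM against 14.0, 13.4 and 12.3 CPM. The control libraries were nearly level, and all knockdown libraries lay below them. The log2 fold change was -0.61 ± 0.08 (SE; 95% interval -0.78 to -0.45), a 1.53-fold decrease with an edgeR adjusted p of 4.56e-06. GATA6-AS1, named after its values were seen, overlaps an exon of GATA6 on the opposite strand, and whether counting used strand is not given, so reads in the overlap cannot be assigned. It had 15, 12 and 15 counts in control and 6, 14 and 9 in knockdown libraries, few beside those of GATA6. Its log2 fold change was -0.92 ± 0.35 (SE, edgeR adjusted p 0.0460), a call lost in 10 of 15 alternative fits.

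KLF5 lies on chromosome 13 (GRCh37, 73629114 to 73651679, plus strand). It stood at 71.9, 71.3 and 78.5 CPM in control and 97.1, 100.4 and 99.9 CPM in knockdown. All knockdown libraries were above the control libraries, among which replicate 3 was the highest. The log2 fold change was 0.46 ± 0.04 (SE; 95% interval 0.36 to 0.55), a 1.37-fold rise with an edgeR adjusted p of 1.46e-07.

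KLF4 (chromosome 9, GRCh37, 110247133 to 110252763, minus strand) was expressed at a lower level and varied more. It had 59, 88 and 61 counts in control and 100, 100 and 120 in knockdown, or 4.69, 7.01 and 5.16 CPM against 6.98, 5.86 and 6.62 CPM. The groups overlapped, because control replicate 2 was above every knockdown library. The log2 fold change of KLF4 was 0.23 ± 0.16 (SE; 95% interval -0.09 to 0.56; edgeR adjusted p 0.259). Without control replicate 2 it was 0.43 (edgeR adjusted p 0.0515), and without control replicate 1 it was 0.11 (0.655), so single control libraries moved it either way. Over the 17 alternative fits the adjusted p of KLF4 ran from 0.0515 to 0.655. The log2 ratio of KLF4 to KLF5 was -3.74 ± 0.34 in control and -3.94 ± 0.15 in knockdown (SD, n = 3 each; exact two-sided permutation p 0.6, adjusted 0.6), a difference within the spread of the libraries.

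ATOH1 had 2, 1 and 0 counts in control and 0, 0 and 1 in knockdown libraries. Summed over a group this was 0.0812 CPM (exact Poisson 95% interval 0.0167 to 0.237) and 0.0202 CPM (0.000511 to 0.113). Both values were at or below the 3 counts per group that a count of 0 allows, so no fold is given. HES1, the Notch-induced repressor of ATOH1, fell from 33.5 ± 0.75 to 26.3 ± 0.57 CPM (each mean ± SD, n = 3; log2 fold change -0.32 ± 0.06 SE, edgeR adjusted p 0.000242). It was named after its values were seen.

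**Figure D1:**
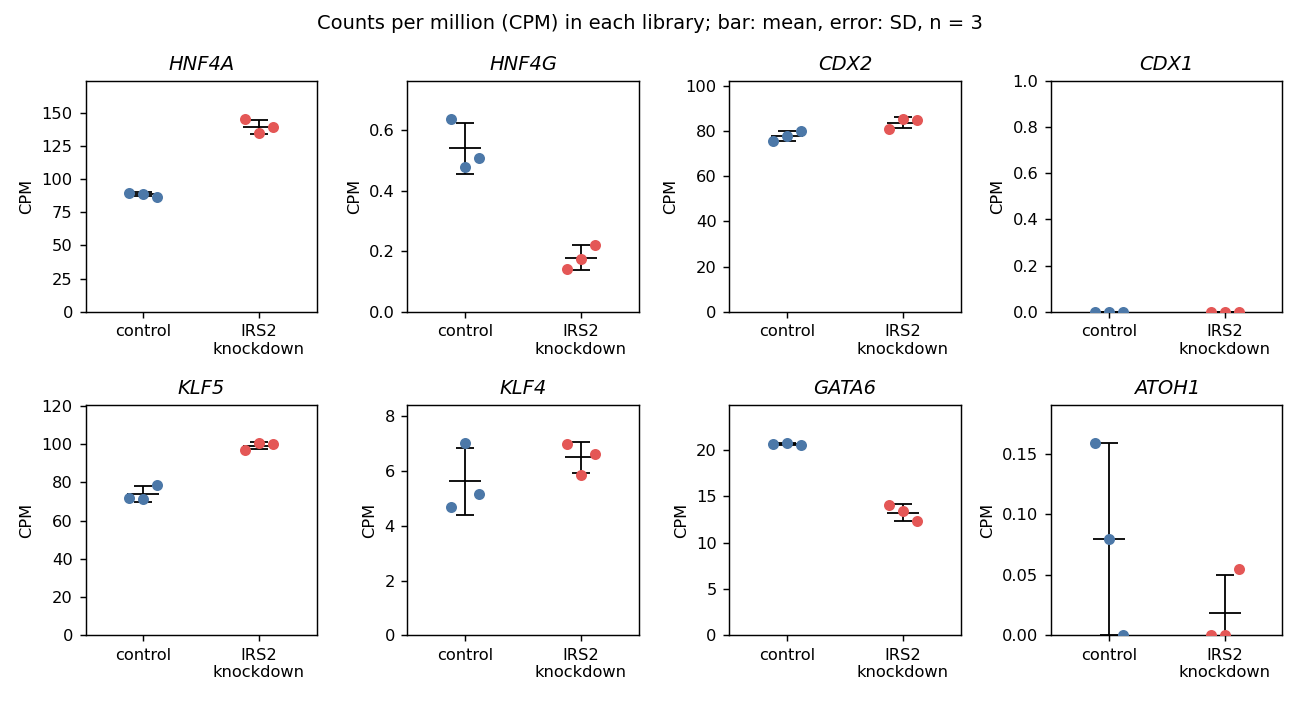
CPM of the 8 members in each library (points) by group, with the mean and SD of 3 libraries as bars; each panel has its own axis from 0. HNF4A, KLF5 and CDX2 lie higher and GATA6 lower in all knockdown libraries, KLF4 overlaps between groups, and HNF4G, CDX1 and ATOH1 stay below 1 CPM.

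The CPM values of the groups did not overlap for 4 of the 5 tested members, 3 higher and 1 lower in knockdown. Among all tested genes, 19.6% did not overlap in the higher direction and 28.8% in the lower. The direction of HNF4A, KLF5 and GATA6 and their side of the threshold were the same in all 17 alternative fits. The log2 fold change ranged from 0.65 to 0.71 for HNF4A, from 0.42 to 0.50 for KLF5 and from -0.65 to -0.57 for GATA6. Thinned to the depth of the smallest library, the values were 0.70, 0.44 and -0.65. The plot of alternative fits shows these values beside those of CDX2 and KLF4.

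**Figure D2:**
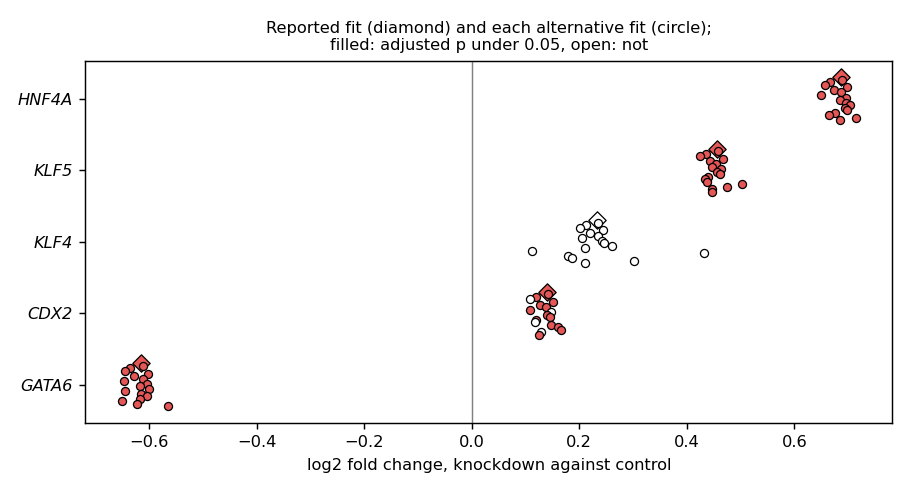
Log2 fold change (x axis, knockdown against control) of the 5 tested members in the reported edgeR fit (diamonds) and in 17 alternative fits (circles); filled symbols have an adjusted p under 0.05. HNF4A and KLF5 stay above 0.4 and GATA6 below -0.5 with filled symbols throughout, CDX2 is near 0.1 with 4 open circles, and KLF4 is open throughout.

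Levels of different members were compared per length, as CPM per kb of the canonical transcript. In control cells CDX2 was at 22.5 ± 0.626, KLF5 at 22.1 ± 1.20 and HNF4A at 19.0 ± 0.322 CPM per kb (SD, n = 3 each). The ranges of CDX2 and KLF5 overlapped, while HNF4A was below KLF5 in all 3 libraries. These levels exceeded those of 74.3%, 73.9% and 70.5% of tested genes. GATA6 followed at 5.69 ± 0.0323 CPM per kb, above 40.2% of tested genes, and KLF4 at 1.91 ± 0.417, above 21.1%. HNF4G was at 0.129 ± 0.0200 CPM per kb, and ATOH1 was below it in every control library.

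In knockdown cells the order of the upper members differed. HNF4A stood at 30.04 ± 1.14 and KLF5 at 29.6 ± 0.541 CPM per kb, with overlapping ranges, and CDX2 at 24.3 ± 0.702 was below both in all 3 libraries (SD, n = 3 each). By this measure HNF4A was below CDX2 in the control libraries and above it in the knockdown libraries. Before scaling by length, HNF4A was the highest of the 3 in control too, at 88.4 CPM against 77.7 for CDX2 and 73.9 for KLF5. Its lower place in control therefore rests on the transcript lengths used. GATA6, at 3.65 ± 0.239 CPM per kb, remained above KLF4, at 2.21 ± 0.195. HNF4G was at 0.0426 ± 0.00969. Transcript lengths ran from 2936 nt for KLF4 to 4645 nt for HNF4A among the tested members. With 3 libraries, these orders are descriptions and were not tested.

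**Figure D3:**
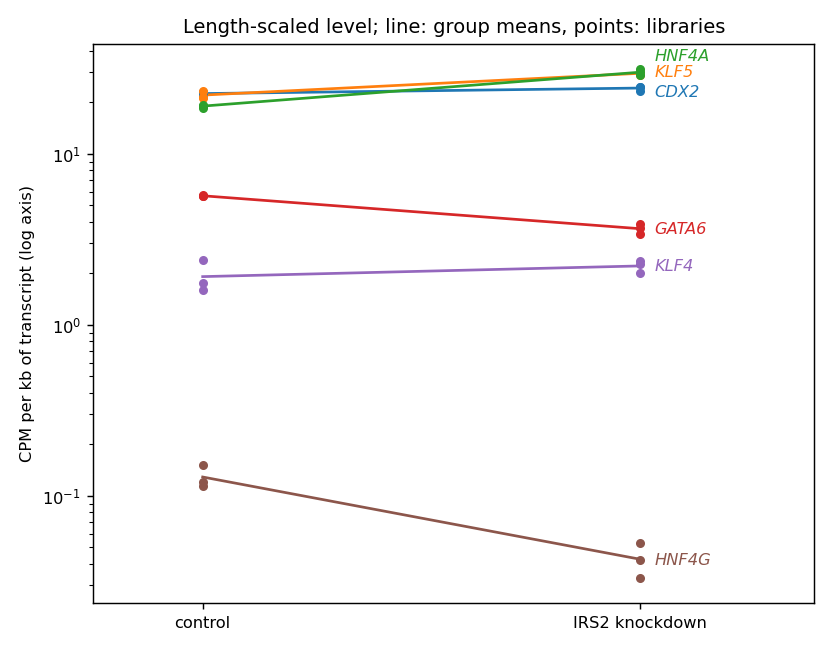
CPM per kb of canonical transcript (log axis) of the 6 members with counts in every library; points are libraries and lines join the group means. CDX2, KLF5 and HNF4A form the upper level in both groups, HNF4A rises from 19.0 to 30.04, and GATA6 falls towards KLF4.

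Across the 6 libraries, HNF4A and KLF5 varied together (Pearson r of log2 CPM 0.96) and both ran against GATA6 (r = -0.97 each). The 6 points fall into the 2 groups, which also differ in depth, so these values are descriptions. For likeness, 10449 genes averaging 100 counts or more were ranked by r, and the 2 genes with the highest r over the 6 libraries were taken for each called member. For HNF4A they were TMBIM6 (r = 0.9988) and CTC1 (0.9978), and for KLF5 they were PTPN3 (0.9986) and ZFP36L2 (0.9984). GATA6 was closest to CD46 (0.9988) and HOXA5 (0.9979), and CDX2 to MIF4GD (0.9984) and NFKBIA (0.9891). An r above 0.99 was reached by 86 of the 10449 genes with HNF4A, 60 with GATA6, 52 with KLF5 and 1 with CDX2.

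Of 33 other transcription factors of the intestinal epithelium, 26 were tested, 6 were higher (23.1% of those tested, against 19.3% of all tested genes) and 9 lower (34.6% against 19.2%), and the median log2 fold change of the tested genes was -0.08. BHLHA15 (MIST1), a factor of secretory cells, rose from 1.40 ± 0.286 to 3.03 ± 0.490 CPM. MAF, which takes part in enterocyte maturation, fell from 13.6 ± 0.451 to 3.79 ± 0.463 CPM, and SMAD4, the shared mediator of BMP and TGF-beta signals, fell from 8.57 ± 1.05 to 2.42 ± 0.291 CPM. GATA4, the proximal gut counterpart of GATA6, fell from 4.37 ± 0.608 to 1.38 ± 0.238 CPM (SD, n = 3 each for these genes). Their log2 fold changes were 1.12, -1.82, -1.78 and -1.62, with edgeR adjusted p-values up to 0.000921 (BHLHA15). FOXA1, an endodermal pioneer factor, fell from 2.84 ± 0.103 to 0.964 ± 0.194 CPM (each mean ± SD, n = 3; log2 fold change -1.54 ± 0.25 SE, edgeR adjusted p 5.97e-05), and was named after its values were seen.

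Among 23 homologues and partners of the members, 17 were tested, 3 were higher (17.6%, against 19.3% of all tested genes) and 8 lower (47.1% against 19.2%), and the tested genes had a median log2 fold change of -0.10. GATA3 fell from 8.48 ± 0.605 to 3.11 ± 0.123 CPM, so that GATA6, GATA4 and GATA3 were each lower in knockdown. GATA2, named after its values were seen, was at 34.9 ± 1.87 and 35.2 ± 0.841 CPM (each mean ± SD, n = 3; edgeR adjusted p 0.612). TCF4, an E protein and a dimer partner of factors such as ATOH1, fell from 6.91 ± 0.634 to 1.74 ± 0.433 CPM. ID3 and ID4, inhibitors of E proteins, fell from 17.1 ± 0.470 to 4.71 ± 0.190 and from 16.2 ± 0.993 to 4.68 ± 0.491 CPM (SD, n = 3 each). The log2 fold changes were -1.41 for GATA3, -1.94 for TCF4, -1.82 for ID3 and -1.75 for ID4, with edgeR adjusted p-values of at most 2.23e-07. The other E protein and ID genes of the list, named after their values were seen, had higher levels and smaller changes. TCF3 fell from 157.6 to 136 CPM. TCF12 rose from 74.2 to 79.0 CPM, with overlapping groups, and ID2 from 154.9 to 164.6 CPM (means, n = 3 each). The log2 fold changes of TCF3, TCF12 and ID2 were -0.18, 0.12 and 0.12 (edgeR adjusted p 0.000382, 0.0385 and 0.0146). NR2F1 (COUP-TFI), an orphan nuclear receptor named after its values were seen, had a log2 fold change of -0.98.

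Of 24 other KLF and SP factors, 20 were tested, 6 were higher (30%) and 3 lower (15%), with 19.3% and 19.2% of all tested genes so called. The median log2 fold change of the 20 was 0.12. SP6 rose from 2.99 ± 0.631 to 6.05 ± 0.719 CPM and KLF13 from 50.9 ± 2.31 to 63.9 ± 1.64 CPM (each mean ± SD, n = 3; log2 fold changes 1.03 and 0.36). KLF12 and KLF9 fell, from 13.3 ± 1.55 to 8.74 ± 1.17 and from 10.4 ± 0.632 to 7.22 ± 0.348 CPM (each mean ± SD, n = 3; log2 fold changes -0.57 and -0.51). Their edgeR adjusted p-values reached 0.00110, for KLF9. The other called members of the list, named after their values were seen, were KLF10, KLF11, SP5 and KLF6, with log2 fold changes of 0.31, 0.30, 0.24 and 0.16, and SP8 with -2.07 at 4 to 18 counts per library. KLF6 missed the threshold in DESeq2's Wald test (adjusted p 0.0699).

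**Figure D4:**
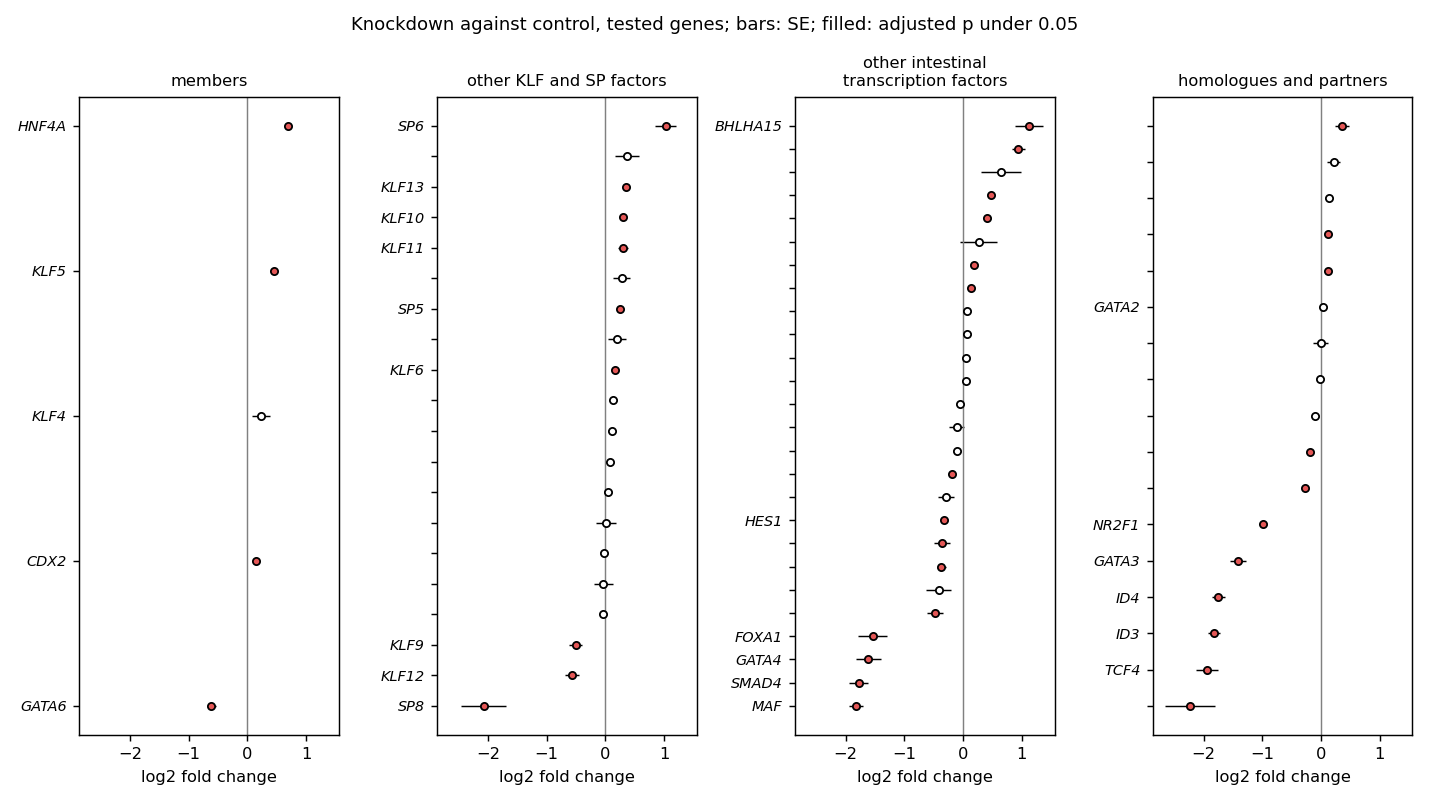
Log2 fold change (x axis, knockdown against control, bars SE) of the tested members and of the tested genes of 3 lists of related factors. Filled points have an edgeR adjusted p under 0.05. Genes named in the text, apart from TCF3, TCF12 and ID2, are labelled. GATA6 is the tested member below 0, and GATA4 and GATA3 lie further below it, at -1.62 and -1.41.

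Most genes that mark the cell fates these factors direct had few counts. Of 42 absorptive intestinal genes, 34 had at most 10 counts in every library, 13 of them 0 throughout. The 6 that were tested had a median log2 fold change of 0.24. Of these, 2 were higher (33.3% against 19.3% of all tested genes) and 1 was lower (16.7% against 19.2%). USH1C, which encodes the brush border scaffold harmonin, rose from 13.3 ± 0.636 to 21.9 ± 0.652 CPM (each mean ± SD, n = 3; log2 fold change 0.75 ± 0.08 SE, edgeR adjusted p 2.89e-07). CEACAM1, an adhesion molecule, had a log2 fold change of 0.49 (edgeR adjusted p 0.0111), which missed the threshold in DESeq2's Wald test (0.105). CA2, a carbonic anhydrase of surface enterocytes, fell from 7.86 ± 0.931 to 3.37 ± 0.483 CPM (each mean ± SD, n = 3; log2 fold change -1.20 ± 0.16 SE, edgeR adjusted p 5.49e-06). VIL1, the villin gene and a known CDX2 target, was at 4.34 ± 0.932 and 5.42 ± 0.307 CPM (each mean ± SD, n = 3; edgeR adjusted p 0.0999), and was named after its values were seen.

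Of 32 secretory lineage genes, 23 had at most 10 counts in every library, among them the goblet cell mucin MUC2, and TFF3 and AGR2 were at 0 throughout. The 7 that were tested had a median log2 fold change of -0.21. Of these, 0 were higher (against 19.3% of all tested genes) and 1 was lower (14.3% against 19.2%). This gene, GFI1, which acts downstream of ATOH1, fell from 4.33 ± 0.354 to 2.69 ± 0.369 CPM (each mean ± SD, n = 3; log2 fold change -0.66 ± 0.18 SE, edgeR adjusted p 0.00703), and missed the threshold in DESeq2's Wald test (0.0713). Of 20 genes of stomach, liver and pancreas, 4 were tested, with a median log2 fold change of -0.20. Of these 4, 1 was higher (25% against 19.3% of all tested genes) and 2 were lower (50% against 19.2%). SERPINA1, which encodes alpha-1-antitrypsin, rose from 40.7 ± 1.10 to 54.5 ± 1.63 CPM (each mean ± SD, n = 3; log2 fold change 0.45 ± 0.05 SE, edgeR adjusted p 7.06e-07). SOX2, a factor of foregut, had a log2 fold change of -0.61 (edgeR adjusted p 0.00502), which missed the threshold in DESeq2's Wald test (0.0572).

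Some markers of the epithelium and of other cells were also called lower in knockdown. Of the 6 tested colon epithelial markers, 0 were higher, against 19.3% of all tested genes. KRT19 (log2 fold change -0.47) and EPCAM (-0.21) were lower, 33.3% of the 6 against 19.2%. EPCAM, with an edgeR adjusted p of 0.00581, missed the threshold in DESeq2's Wald test (0.0724). The summed level of the 12 markers was 2512 to 2615 CPM in control and 2341 to 2423 CPM in knockdown. Most of it was KRT8 (means 1106 and 1043 CPM) and KRT18 (1131 and 1071 CPM). Neither was called (edgeR adjusted p 0.13 and 0.21), though KRT8 passed in 3 and KRT18 in 1 of 17 alternative fits. Of 17 markers of other cell types, 6 were tested, 0 were higher (against 19.3% of all tested genes) and 2 were lower (33.3% against 19.2%). The sum of the 17, most of it KRT5, was 1536 to 1609 CPM in control and 1460 to 1492 CPM in knockdown. KRT5 was not called (log2 fold change -0.06, edgeR adjusted p 0.0877), though it passed in 5 of 17 alternative fits. PECAM1, CDH5 and S100B were at 0 in all libraries, as was ALB of the liver list, and PTPRC, TP63 and DCN had at most 3 counts in any. COL1A1, one of the 2 lower genes, had 193 counts in control replicate 1 against 72 and 67 in the other control libraries, and 61 to 72 in knockdown. Its log2 fold change was -1.15 (edgeR adjusted p 0.00290), and -0.50 without control replicate 1 (0.0325), and it missed the threshold in DESeq2's Wald test (0.0849). COL3A1, the other lower gene, named after its values were seen, had 34, 19 and 5 counts in control and 6, 3 and 14 in knockdown libraries. Its edgeR adjusted p was 0.0136, and 0.179 without control replicate 1 and 0.0766 without knockdown replicate 2. The part of these shifts in the members' results was not tested. Without control replicate 1 the log2 fold changes of HNF4A, KLF5 and GATA6 were 0.69, 0.43 and -0.61, each past the threshold. In that fit CDX2, at 0.12, was no longer called (edgeR adjusted p 0.0668).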

How the data were processed

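The authors deposited whole-number read counts per gene symbol and a second table with a normalized signal, which equals the deposited counts of each library divided by 1 constant (0.847 to 1.25). The submitters' processing notes name STAR 2.6.1a, Salmon, DESeq2 and the build hg19. The annotation and strand setting are not given in the sources used here. The 8 members and all gene lists were chosen with earlier results of these data known, the motifs after the members' results. Counts were tested with edgeR 4.0.16 (TMM factors, filterByExpr, quasi-likelihood F-test, group only), and adjusted over all genes. The alternatives were 3 other scalings, 2 other filters, DESeq2 1.42.0, limma 3.58.1 (voom, and log2 of the deposited signal plus 1), thinned counts, a replicate block, a length and GC correction, and leaving out each library. CPM used total counts. Lengths came from canonical transcripts of GENCODE 44 lifted to GRCh37, found for 95.8% of tested genes. Beside the members, the genes named were up to 4 per list with the largest changes past the threshold and a mean of at least 30 counts. Others are marked as named after their values were seen, apart from markers given as a check of the cells. The test was checked on simulated data with 13684 tested genes. It called 67.7% of 99 genes with a log2 change of 0.5 and 85.4% of 96 with a change of 1. Of all its calls there, 5.1% were false. Only these genes were changed in the simulation, while 5329 were called in the data. The adjustment was therefore stricter there, and the shares need not hold for the data. In all, 0 columns of samples were left unused. SE is the log2 fold change over the square root of F. Amplified reads are not independent molecules, so intervals and floors cover counting error only. Results for some listed genes are not reported here.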

Additional observations from a re-analysis of the deposited data

How the results depend on the processing

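The number of members called higher was 2 or 3 over 18 alternatives (3 in 13 of them), and 1 member was called lower in all 18. CDX2 kept its direction but missed the threshold with library size alone (log2 fold change 0.109), in DESeq2's Wald test (0.147) and in 2 of the fits that left out a library, over which it ranged from 0.117 to 0.166. Control levels moved by more than 1 SD for HNF4A with the longest transcript (18.65 CPM per kb) and for GATA6 with TMM-scaled CPM (5.63). With the replicate number of the titles as a block, the log2 fold changes were 0.687 for HNF4A, 0.454 for KLF5, 0.137 for CDX2, -0.612 for GATA6, 0.235 for KLF4 and -1.39 for IRS2, and no call of these genes changed. Deviations of same-numbered libraries correlated at 0.11, 0.14 and -0.12, so the numbers were not taken to pair the samples. As a block, the log2 ratio of HNF4A to HNF4G moved by 2.27 (exact p 0.25, the smallest that 3 pairs can give) and that of KLF4 to KLF5 by -0.20 (exact p 1). For 36 of the other named genes, 576 of 603 values kept their direction and side of the threshold. Of the rest, 18 fell short of it, 9 newly passed it and 0 reversed. For HNF4G, ATOH1 and CDX1 the depth was the limit: a count of 0 allows up to 0.0812 CPM in control (one-sided 95% limit).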
